A study of Homo sapiens with 6 samples.

Results

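KRT31, KRT33A, KRT33B and KRT34 are 4 neighbouring genes for type I (acidic) hair keratins, followed here in erastin-treated retinal pigment epithelial (RPE) cells with and without vitamin K1 (VK1). They were chosen by symbol because their values were lower with VK1, and they are 4 of the 33496 genes with a value in each library. RNA-seq values came from 6 libraries of ARPE-19, a spontaneously arisen line of human RPE cells that is labelled wild type. All 6 cultures received erastin, 5 μM for 24 h, which blocks cystine uptake and sets off ferroptosis, an iron-dependent death by lipid peroxidation. The 3 Era libraries had erastin alone, and the 3 Era+VK libraries had VK1, 10 μM, from 1 h before it. Erastin was given in DMSO and VK1 in ethanol, and no source used here says whether the Era cultures received ethanol. Libraries without erastin were not analysed here, so no value shows what erastin itself did to these genes.

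Keratins are the intermediate filament proteins of epithelial cells, and a filament needs a type I and a type II keratin in pairs. Simple epithelia such as RPE rely on KRT8 and KRT18, whereas hair keratins are cysteine-rich proteins that build the hair shaft, where disulfide bonds join them to one another and to keratin-associated proteins. The type I genes other than KRT18 lie in a cluster on chromosome 17 and the type II genes in another on chromosome 12, and the hair keratins of each cluster arose by gene duplication. HOXC13 and FOXN1 are known activators of hair keratin genes in the follicle, and LEF1 acts there in Wnt signalling.

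In GENCODE 29 on GRCh38, all 4 genes are on the minus strand of chromosome 17, within 51.5 kb, and each has 7 exons. KRT33A (ENSG00000006059) spans chr17:41346092-41350812, KRT33B (ENSG00000131738) chr17:41363494-41369800, KRT34 (ENSG00000131737) chr17:41377650-41382403 and KRT31 (ENSG00000094796) chr17:41393724-41397592. The gaps between them are 12.7, 7.8 and 11.3 kb, in that order.

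The copies are alike enough that the reads of one could be counted for another, so their sequences come before their values. The first 120 coding bases, from GENCODE 29 transcripts on GRCh38, are given for all 4, with capitals at the 13 positions where at least 1 gene differs. The bases of KRT34 are its coding positions 127 to 246, because GENCODE starts its coding sequence 126 bases upstream of the ATG that aligns with the others.
KRT31: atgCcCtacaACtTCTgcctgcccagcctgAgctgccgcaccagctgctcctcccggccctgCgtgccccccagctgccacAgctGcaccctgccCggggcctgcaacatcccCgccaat
KRT33A: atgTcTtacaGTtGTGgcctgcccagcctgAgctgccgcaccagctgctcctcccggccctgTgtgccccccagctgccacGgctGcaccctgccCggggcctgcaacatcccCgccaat
KRT33B: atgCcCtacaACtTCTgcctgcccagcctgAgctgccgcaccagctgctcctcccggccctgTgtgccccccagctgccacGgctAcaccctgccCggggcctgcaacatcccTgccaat
KRT34: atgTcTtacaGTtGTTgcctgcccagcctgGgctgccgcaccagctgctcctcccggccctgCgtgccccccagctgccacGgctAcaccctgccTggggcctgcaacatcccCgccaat

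Over the whole aligned coding sequence, KRT33A and KRT33B were the closest pair, identical at 95.1% of positions with 59 differing bases. KRT31 and KRT33B were identical at 93.7%, KRT31 and KRT33A at 92.5%, KRT33A and KRT34 at 92.1%, KRT33B and KRT34 at 91.9%, and KRT31 and KRT34 at 91.1%. The longest stretch without a difference between KRT33A and KRT33B was 144 bases, coding positions 690 to 833 of KRT33A, and it is printed because it is just shorter than a 150-base read.
KRT33A: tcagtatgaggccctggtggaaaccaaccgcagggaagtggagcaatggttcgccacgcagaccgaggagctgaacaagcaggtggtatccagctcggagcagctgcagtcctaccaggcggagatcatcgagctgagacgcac
The longest stretch found in all 4 coding sequences had 43 bases, shown as coding positions 869 to 911 of KRT34.
KRT34: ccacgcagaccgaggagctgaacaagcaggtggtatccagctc

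Against all GENCODE 29 transcripts, none of the 150-base windows of any of the 4 transcripts was found whole in another gene. With windows of 100 bases, 0.534% of KRT31, 5.22% of KRT33A, 5.57% of KRT33B and 0.848% of KRT34 were found elsewhere, and with 50 bases 14.2%, 27.5%, 27.7% and 11.4%. Every one of these matches was to another of the 4 genes. A few differing bases separate many of the reads, however. Within 3 mismatches of another member lay 37.5% of the 150-base windows of KRT33A, 35.9% of KRT33B, 19.5% of KRT31 and 11.9% of KRT34. The median over windows of the fewest mismatches to another member was 5 for KRT33A, 6 for KRT33B, 9 for KRT31 and 13 for KRT34. By this measure KRT34 and KRT31 were the best separated members. The study sequenced both ends of its fragments at 150 bases, and how StringTie placed reads with several matches is not given in the sources used here. Only annotated transcripts were searched, not the genome.

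**Figure D1:**
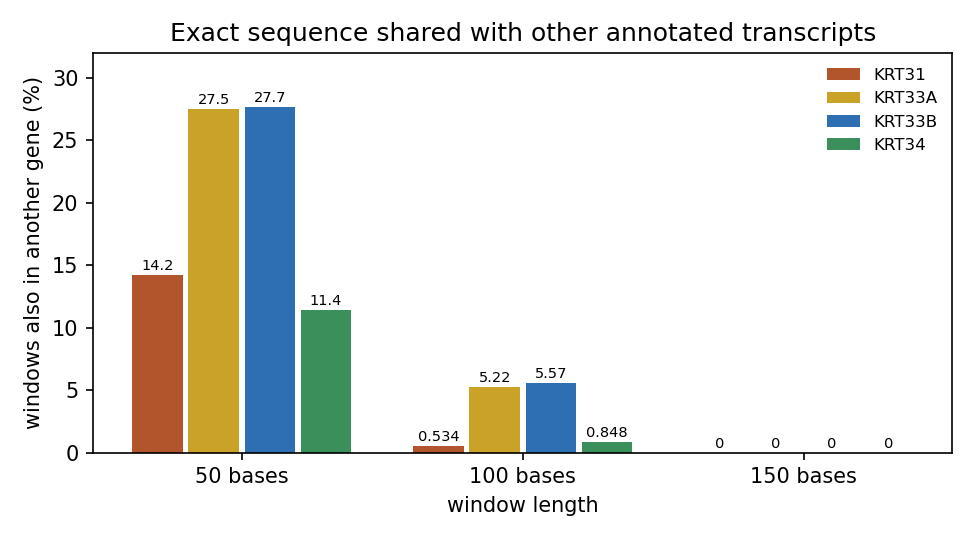
Share of windows of 50, 100 and 150 bases (x axis) in the transcript of each gene that also occur, letter for letter, in a transcript of another GENCODE 29 gene (y axis, %). At 50 bases KRT33A and KRT33B share 27.5% and 27.7% of their windows, and at 150 bases all 4 genes share none.

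Before the values of the members, the libraries themselves were checked. Between 11924 and 12027 genes per library reached 1 FPKM (fragments per kilobase of transcript, scaled to all mapped fragments), and the depth behind the values is unknown. Era+VK replicates 2 and 3 stood apart by globin transcripts, whose FPKM summed to 235 and 228, against 0.24 to 0.61 in the Era libraries and 0.29 in Era+VK replicate 1. In the same replicates, GATA1 and KLF1 of the erythroid marker list stood at 2.35 and 2.27 FPKM and at 1.17 and 0.82 FPKM. Elsewhere GATA1 was 0 and KLF1 at most 0.03 FPKM. The source of these transcripts was not tested. Of the RPE markers, OTX2 lay between 27.5 and 31.4 FPKM in all 6 libraries. MITF was at 15.5 to 15.8 FPKM in Era against 16.8 to 18.6 FPKM in Era+VK, without overlap, while RPE65 was at most 0.02 FPKM, RLBP1 at most 0.29 FPKM and BEST1 ranged from 0.60 to 57.0 FPKM. The keratinocyte genes TP63 (at most 0.02 FPKM) and DSG3 (0 in all 6) were at or near 0. So were the hair shaft genes KRT35 (0 in all 6), KRT85 (at most 0.09 FPKM), HOXC13 (at most 0.12 FPKM) and TCHH (at most 0.15 FPKM). KRT32, also on the hair shaft list, was not, at 3.25 to 4.73 FPKM. The summed FPKM of that list, 5 of 6 genes with a row, was 3.40 to 4.49 in Era and 3.83 to 4.85 in Era+VK, most of it from KRT32. The summed FPKM of the keratinocyte list, 4 of 8 genes with a row, was 2.31 to 2.90 in Era and 2.87 to 3.80 in Era+VK, most of it from KRT10. The list for ARPE-19 in culture (VIM, KRT8 and KRT18) summed to 1345 to 1354 FPKM in Era against 1172 to 1209 FPKM in Era+VK, with VIM, the filament protein of mesenchymal and cultured cells, at 911 to 952 against 750 to 792 FPKM. KRT8 went the other way, at 170.8 to 187.5 FPKM in Era against 191.5 to 208.8 FPKM in Era+VK. KRT18 overlapped, at 225.5 to 245.8 against 221.8 to 226.6 FPKM. The sums of this list thus did not overlap between groups because of VIM, and the part of this shift in the values of the hair keratins was not tested.

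KRT34, a keratin of the hair cortex, was listed at 29.7, 34.2 and 36.5 FPKM in Era replicates 1 to 3 and at 11.2, 13.7 and 13.8 FPKM in Era+VK replicates 1 to 3. The highest Era+VK library was below the lowest Era library. The means were 33.5 ± 3.47 FPKM (SD, n = 3) and 12.9 ± 1.495 FPKM (SD, n = 3), a 2.60-fold difference of the means. On the log2(FPKM + 1) scale the fold change was -1.31 ± 0.13 (SE from the gene's own 6 values), which describes the choice of this gene and is given without a test.

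KRT33B, another cortex keratin, was listed at 34.4, 30.7 and 40.9 FPKM in Era against 14.7, 13.4 and 15.4 FPKM in Era+VK. Again the groups did not overlap. Its means were 35.3 ± 5.12 FPKM and 14.5 ± 0.982 FPKM (SD, n = 3 each), a 2.43-fold difference and -1.22 ± 0.13 (SE, likewise) on the log2 scale. Adding KRT33A to it before the log gave -1.23.

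KRT31, also of the cortex, was about 10 times less abundant. Its values were 2.83, 3.58 and 3.19 FPKM in Era against 1.74, 1.35 and 1.53 FPKM in Era+VK, with means of 3.20 ± 0.375 FPKM and 1.54 ± 0.195 FPKM (SD, n = 3 each) and no overlap. The means differed 2.08-fold, and the log2 fold change was -0.72 ± 0.10 (SE, likewise). With a pseudocount of 0.1 in place of 1 FPKM it was -1.01, since the larger pseudocount shrinks the difference of a gene at this level.

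KRT33A was close to absent. It was listed at 0, 0.27 and 0.24 FPKM in Era against 0 in all 3 Era+VK libraries, so the groups overlapped through Era replicate 1 and no fold change is given. It was the only one of the 4 below the mean of 1 FPKM required for testing. Although its coding sequence is the nearest to that of KRT33B, its value was at most 0.878% of that of KRT33B in the same library.

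Thus 3 of the 4 genes passed the filter, and those 3 were lower in every Era+VK library than in any Era library. Of the 11981 genes tested, 7.04% were lower in this way, and the members were picked for it, so nothing is read from the count. More genes, 15.1%, were higher in every Era+VK library than in any Era library, or 22.1% in either direction. In the limma test over all genes the balance ran the other way, with 74 genes called (0.618%), 58 of them lower (0.484%) and 16 higher (0.134%). At an unadjusted p under 0.05 stood 15.8% of the genes, and the median log2 fold change was 0.03. A log2 fold change of -1 or lower was found in 6 genes (0.0501%), KRT33B and KRT34 among them. In these bulk cultures, fewer cells making a transcript and less of it per cell cannot be told apart.

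**Figure D2:**
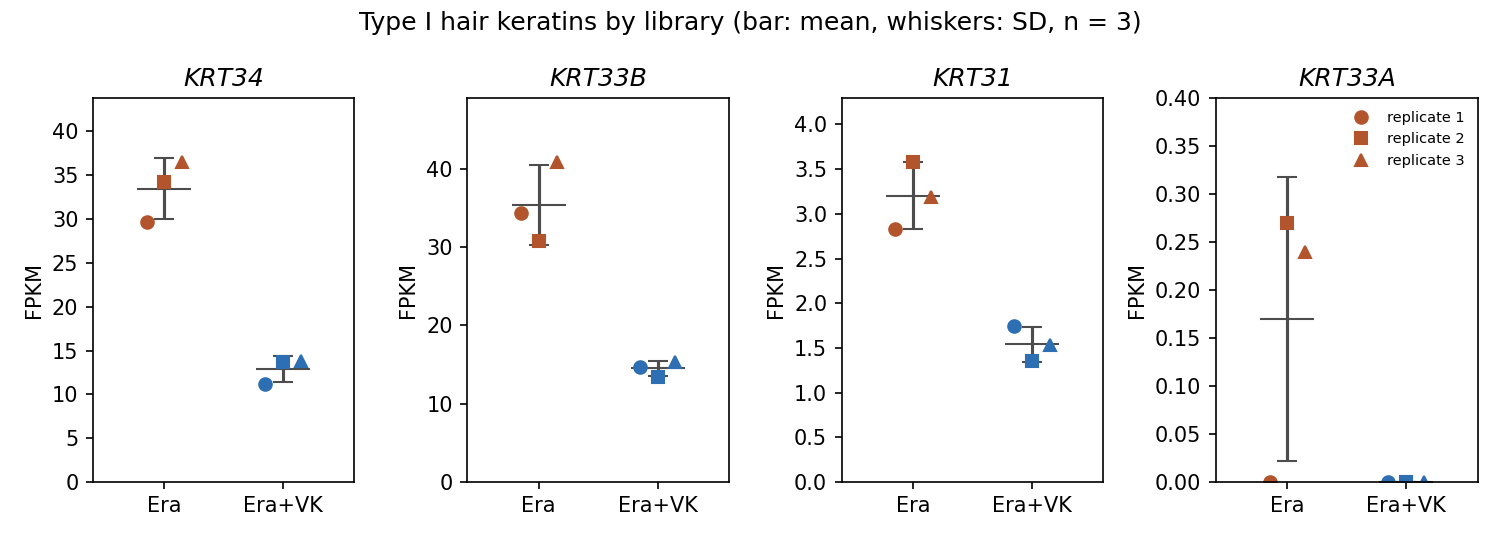
FPKM of each gene (y axes from 0, with a scale of its own in each panel) in the 3 Era and 3 Era+VK libraries; symbols are replicates, bars the mean and whiskers the SD. KRT34, KRT33B and KRT31 do not overlap between groups, and KRT33A is 0 in 4 of the 6 libraries.

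The members were picked for their fall over the Era+VK libraries, so the values of each such library are a description only. Era+VK replicate 1 was the library of its group with almost no globin transcripts. Whether the globin signal has a part in the difference was not tested. In that library, against the mean of Era, KRT34 differed by -1.499 on the log2 scale, KRT33B by -1.20 and KRT31 by -0.61. In replicate 2 the values were -1.22, -1.32 and -0.83, and in replicate 3 they were -1.22, -1.14 and -0.73. KRT34 was thus lowest in the library where KRT31 was least low.

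KRT33B and KRT34 had nearly the same level, FPKM being a value per length. The ratio of KRT34 to KRT33B was 0.864, 1.11 and 0.894 in Era and 0.758, 1.02 and 0.896 in Era+VK. Their order thus changed between replicates within each group, and the levels did not differ beyond their spread. In Era, KRT33B stood above 91.6% and KRT34 above 91.1% of the genes tested, while KRT31 stood above 28.95%. KRT31 made up 8.24%, 11.7% and 7.81% of the KRT33B level in Era and 11.8%, 10.04% and 9.95% in Era+VK, ranges that overlap. The 4 genes together summed to 66.9, 68.8 and 80.8 FPKM in Era against 27.6, 28.5 and 30.7 FPKM in Era+VK. They were 6.97 ± 0.365% of all keratin FPKM in Era against 3.04 ± 0.235% in Era+VK (SD, n = 3 each), a small share beside KRT7, KRT18 and KRT8.

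The genes next to the 4 were examined for a change shared along the chromosome. Within 250 kb of them GENCODE lists 48 other genes, of which 19 have a row, 15 are above 0 in any library and 3 reached a mean of 1 FPKM: KRT32, KRT13 and KRT19. KRT13 was called lower, KRT32 and KRT19 were not called, and 1 of the 3 had an unadjusted p under 0.05. For all genes tested in limma the shares were 0.618% called and 15.8% at an unadjusted p under 0.05. KRT13, a type I keratin of the moist lining epithelia whose start is 123.3 kb from that of KRT34, was listed at 8.93, 7.67 and 7.74 FPKM in Era against 4.64, 5.38 and 3.92 FPKM in Era+VK. Its means were 8.11 ± 0.708 and 4.65 ± 0.730 FPKM (SD, n = 3 each). In limma the log2 fold change was -0.70 ± 0.10 (SE), with an adjusted p of 0.0331. None of its 150-base windows occurs in another gene. Without Era+VK replicate 2 the adjusted p was 0.0307, and without any other library it was between 0.063 and 0.129, above the threshold of 0.05.

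KRT32, a type I keratin of the hair cuticle 85.0 kb from KRT34, was listed at 4.36, 4.16 and 3.25 FPKM in Era against 4.73, 4.68 and 3.68 FPKM in Era+VK. The groups overlapped, and limma gave a log2 fold change of 0.12 ± 0.11 (SE) with an adjusted p of 0.623. KRT37, a hair keratin that lies between KRT31 and KRT32, was too low to be tested, at 0.50, 0.46 and 0.31 FPKM in Era against 0.22, 0.24 and 0.24 FPKM in Era+VK. KRT35, KRT36 and KRT38 were at most 0.39 FPKM in any library. KRT19, of simple epithelia, had 0.43 ± 0.23 (SE) by the same measure, with an adjusted p of 0.413.

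**Figure D3:**
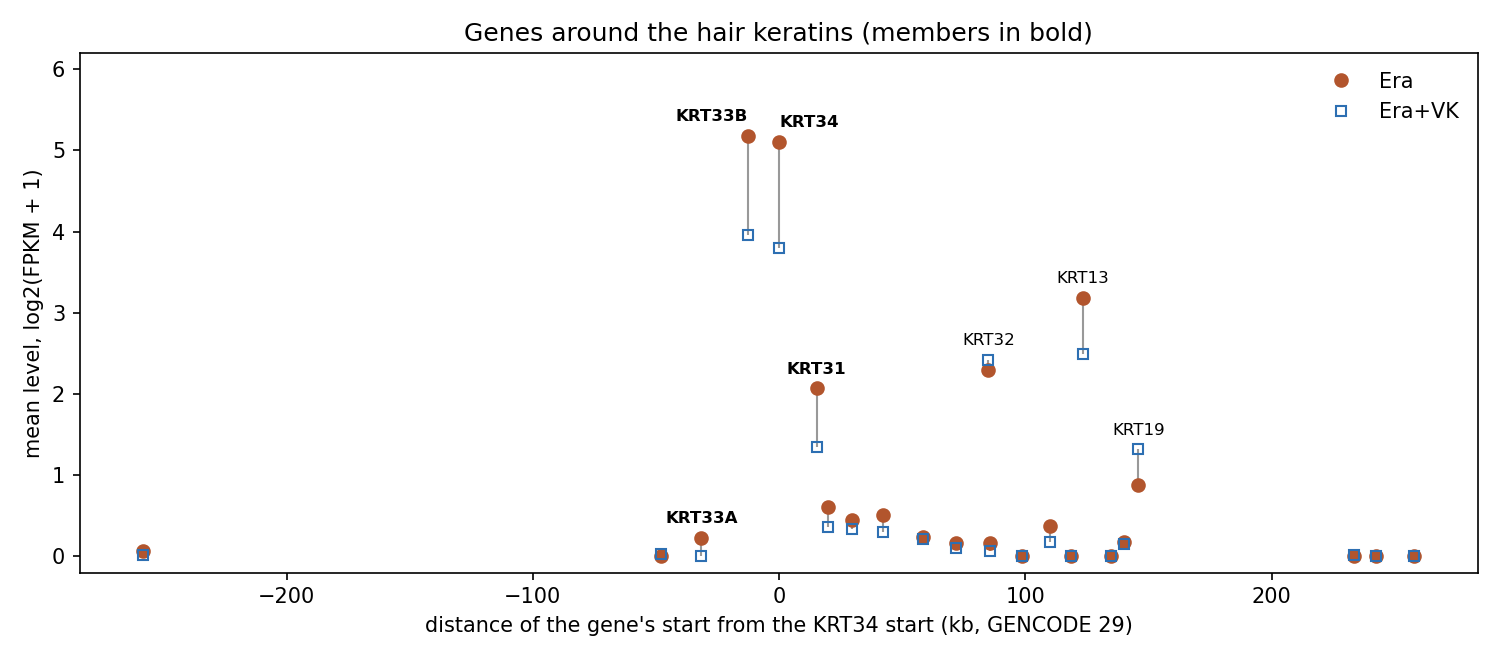
Mean level in Era (filled circles) and Era+VK (open squares), as log2(FPKM + 1), against the distance in kb of each gene's start from the KRT34 start, for the genes within 250 kb that have a row. The 4 members are in bold; KRT13 at 123.3 kb is also lower in Era+VK, and KRT32 between them is not.

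A type I keratin needs a type II partner, so the type II hair keratins were examined next. Of 6 listed, 4 have a row, 2 were tested and neither was called. In limma 1 had an unadjusted p under 0.05, a level reached by 15.8% of all genes tested. KRT86, a cortex keratin, was listed at 1.33, 1.70 and 1.94 FPKM in Era against 1.46, 1.16 and 0.97 FPKM in Era+VK, for which limma gave a log2 fold change of -0.27 ± 0.11 (SE) and an adjusted p of 0.306. KRT81, its close copy, was at 0.22 FPKM in Era replicate 1 and between 2.28 and 4.44 FPKM in the other 5 libraries (log2 fold change 0.29 ± 0.53 (SE), limma adjusted p 0.830). These copies share 456 of their 150-base windows, 25.6% of KRT81 and 22.1% of KRT86, so the division of reads between them is uncertain. Type II hair keratins summed to 1.55, 6.23 and 6.28 FPKM in Era against 5.49, 4.17 and 3.25 FPKM in Era+VK, below the type I hair keratins in every library.

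The other keratins gave 1 call, KRT13. Of the 4 other type I keratins tested, 1 was called lower and none higher, with 2 at an unadjusted p under 0.05, KRT13 lower and KRT10 higher. Of the 3 other type II keratins none was called, with 2 at an unadjusted p under 0.05, KRT80 lower and KRT8 higher. Over all genes tested in limma, 0.618% were called and 15.8% stood at an unadjusted p under 0.05. KRT8 and KRT18, the partners of simple epithelia, had log2 fold changes of 0.15 ± 0.06 and -0.05 ± 0.05 (SE), with limma adjusted p of 0.270 and 0.642. KRT7, the most abundant keratin, averaged 447 ± 28.0 FPKM in Era against 409 ± 14.6 FPKM with VK1 (SD, n = 3 each), a difference of -0.13 ± 0.06 (SE) on the log2 scale with a limma adjusted p of 0.350. KRT80 was at -0.14 (adjusted p = 0.261) and KRT10, of the suprabasal epidermis, at 0.30 (adjusted p = 0.182) in limma, its Era+VK libraries all above its Era libraries. The groups also did not overlap for KRT8, which was higher, or for KRT7 and KRT80, which were lower. Of all genes tested, 22.1% did not overlap in either direction.

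Keratin-associated proteins cross-link hair keratins. The 16 listed here are the symbols with a row that start with KRTAP, the antisense transcript KRTAP5-AS1 among them. Other KRTAP genes, many of them within 250 kb of the members, have no row and are not counted. Of the 16, only KRTAP2-3 was tested. It was listed at 8.78, 8.07 and 8.64 FPKM in Era against 3.82, 5.59 and 3.10 FPKM in Era+VK. The groups did not overlap, but its log2 fold change of -0.91 ± 0.15 (SE) did not pass the threshold (limma adjusted p 0.0538), with 1 of 1 at an unadjusted p under 0.05. By the same measures, 22.1% of all genes tested did not overlap and 15.8% had an unadjusted p under 0.05. KRTAP2-3 passed in 3 alternatives, with the lowest adjusted p, 0.0153, without Era+VK replicate 2. KRTAP2-3 shares 29.5% of its 150-base windows with KRTAP2-4, KRTAP2-1 or KRTAP2-2, so its value is uncertain. KRTAP2-4 stood at 0.89, 1.61 and 1.63 FPKM in Era against 0.83, 0.63 and 0.38 FPKM in Era+VK.

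**Figure D4:**
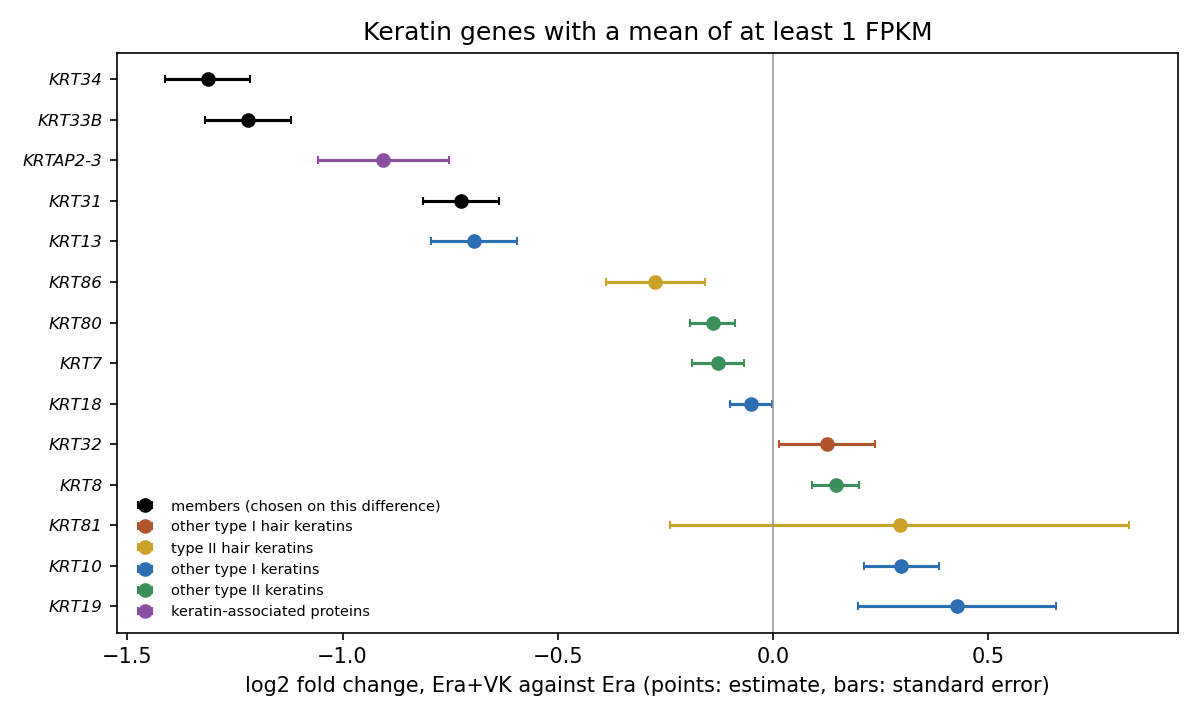
Log2 fold change of Era+VK against Era (x axis; points are the limma estimates, bars limma's moderated standard errors, which for KRT34, KRT33B and KRT31 are smaller than those from each gene's own values) for each keratin and keratin-associated gene with a mean of at least 1 FPKM. KRT34, KRT33B and KRT31 (black) were chosen for this difference; KRTAP2-3 and KRT13 lie beside KRT31, and KRT86 to KRT19 lie between -0.27 and 0.43.

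Several of the genes that act on hair keratins in the follicle, but not all, were near 0. Of 10 listed regulators, 9 have a row and 2, MSX1 and MSX2, were tested, with no call and none at an unadjusted p under 0.05 in limma. HOXC13 was at most 0.12 FPKM and FOXN1 at most 0.03 FPKM, while LEF1 was between 0.59 and 0.85 FPKM and VDR between 0.67 and 1.09 FPKM. MSX1 averaged 2.41 ± 0.155 FPKM without and 2.71 ± 0.221 FPKM with VK1, and MSX2 4.03 ± 0.875 and 3.94 ± 0.243 FPKM (SD, n = 3 each). Of 10 structural genes of the hair shaft and sheath, 3 were tested (TGM1, S100A3 and DSC3), with log2 fold changes of -0.02, -0.10 and 0.06, again with no call and none at an unadjusted p under 0.05. Desmosome and linker proteins tie keratin filaments to junctions and to each other. Of these, 11 of 14 were tested, none was called and none had an unadjusted p under 0.05. Their log2 fold changes ran from -0.10 for PLEC, a cytolinker, and -0.04 for FAM83H through 0.00 for JUP and DSP, 0.01 for DSG2, 0.03 for PKP4 and DST and 0.05 for DSC2 to 0.08 for TCHP and 0.14 for PKP2 and PPL. The lowest adjusted p among them was 0.401, for PKP2, in limma. TCHP, which binds keratin filaments, was the only one of the 11 without overlap, at 2.70 ± 0.126 FPKM in Era and 2.92 FPKM on average with VK1. Among all genes tested 22.1% did not overlap in either direction, so nothing is read from this count.

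As the genes share a cluster but not a level, the sequences just upstream of their starts were compared. The 250 bases before each RefSeq start (GRCh38.p14, minus strand, chr17:41397609-41397858 for KRT31, chr17:41350829-41351078 for KRT33A and chr17:41369814-41370063 for KRT33B) are shown. For KRT34 only the 153 bases upstream of the earlier GENCODE start are shown (chr17:41382404-41382556), since GENCODE counts the 97 bases before the RefSeq start as transcribed. Capitals mark the TATA box letters TATAAA, the LEF1 motif CTTTGAA, the composite C/EBP-ATF motif TGATGNAA and, for HOXC13, any of TTAATNAA, TTAATNAG, TTAATNGA, TTAATNGG, TTTATNAA, TTTATNAG, TTTATNGA and TTTATNGG, on either strand.
KRT31: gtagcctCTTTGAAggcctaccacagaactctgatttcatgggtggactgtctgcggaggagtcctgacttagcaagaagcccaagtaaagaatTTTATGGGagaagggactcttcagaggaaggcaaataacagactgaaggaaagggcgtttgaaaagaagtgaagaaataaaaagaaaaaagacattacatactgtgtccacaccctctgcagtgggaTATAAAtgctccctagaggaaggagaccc
KRT33A: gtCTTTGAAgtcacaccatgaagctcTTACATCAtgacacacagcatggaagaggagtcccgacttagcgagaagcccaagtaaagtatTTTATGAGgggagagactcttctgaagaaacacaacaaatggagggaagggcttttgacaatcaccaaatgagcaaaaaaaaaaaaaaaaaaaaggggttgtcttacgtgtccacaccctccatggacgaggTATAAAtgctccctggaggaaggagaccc
KRT33B: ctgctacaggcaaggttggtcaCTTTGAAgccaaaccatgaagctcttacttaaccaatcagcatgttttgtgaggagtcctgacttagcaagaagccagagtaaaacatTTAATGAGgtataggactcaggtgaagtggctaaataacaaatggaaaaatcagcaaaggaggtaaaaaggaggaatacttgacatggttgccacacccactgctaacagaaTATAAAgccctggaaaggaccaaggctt
KRT34: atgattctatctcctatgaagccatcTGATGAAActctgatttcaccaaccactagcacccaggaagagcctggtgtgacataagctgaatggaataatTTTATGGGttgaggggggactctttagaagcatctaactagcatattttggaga

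TATAAA stands 28 to 31 bases before the RefSeq start in all 4, for KRT34 within the bases not shown, against 10.7% of 35116 RefSeq promoter windows of the same length. This and the other shares of windows count a match anywhere in the window on either strand, not at the positions given. The HOXC13 set was matched in all 4, between 140 and 161 bases before the start (15.5% of all windows), and CACCC was matched in all 4 at 46 or 47 bases (54.7%). CTTTGAA occurs in KRT31, KRT33A and KRT33B, at 243, 248 and 228 bases, and not in KRT34 (3.81% of all windows). TGATGNAA occurs in KRT34, and on the opposite strand in KRT33A, at 224 bases in both (3.14%), and not in KRT31 or KRT33B. The AP-1 letters TGANTCA were in none of the 4 (6.57%). The motifs were chosen after the sequences had been seen, the windows descend from duplicated DNA and are not independent, and a match of letters is not a site that was measured.

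Upstream identity ranged from 57.6% for KRT33B and KRT34 to 73.9% for KRT31 and KRT33A. The longest exact run, 26 bases, was between KRT31 and KRT33B. KRT31 and KRT34 were identical at 58.2% of aligned upstream bases. The comparisons with KRT34 include bases before its RefSeq start that GENCODE counts as transcribed. Whether the upstream sequences have a part in the levels of the genes was not tested.

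Lastly, the genes of most similar pattern over the 6 libraries were sought. Each gene's log2(FPKM + 1) was centred on its mean and compared with the mean centred profile of KRT31, KRT33B and KRT34 by the root mean square difference, and the median over 11978 genes was 0.57. The 5 nearest were PCK2 (0.11), CTH (0.13), ASNS (0.15), GARS1 (0.16) and PSAT1 (0.17), on the log2 scale. The members themselves were at 0.12 for KRT33B, 0.15 for KRT34 and 0.21 for KRT31, so all 5 genes lay nearer to the mean profile than KRT31 did. At the low level of KRT31, however, the scale shrinks the difference. Its log2 fold change was -0.72 with a pseudocount of 1 FPKM and -1.01 with 0.1 FPKM, so its distance depends on this choice. None of the 5 is a keratin.

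PCK2 is the mitochondrial phosphoenolpyruvate carboxykinase, and it was listed at 21.3, 20.6 and 20.6 FPKM in Era against 10.3 ± 0.712 FPKM (SD, n = 3) in Era+VK. CTH makes cysteine from cystathionine, and its means were 8.80 ± 0.860 and 4.13 ± 0.770 FPKM. ASNS, the asparagine synthetase, had 39.1 ± 1.06 and 19.9 ± 2.75 FPKM. GARS1 charges glycine to its tRNA and had 18.3 ± 0.905 and 10.2 ± 1.04 FPKM, while PSAT1, of serine synthesis, had 165 ± 3.05 and 86.1 ± 14.6 FPKM. The similarity measure uses the contrast that chose the members, so these values are a description, with no test.

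**Figure D5:**
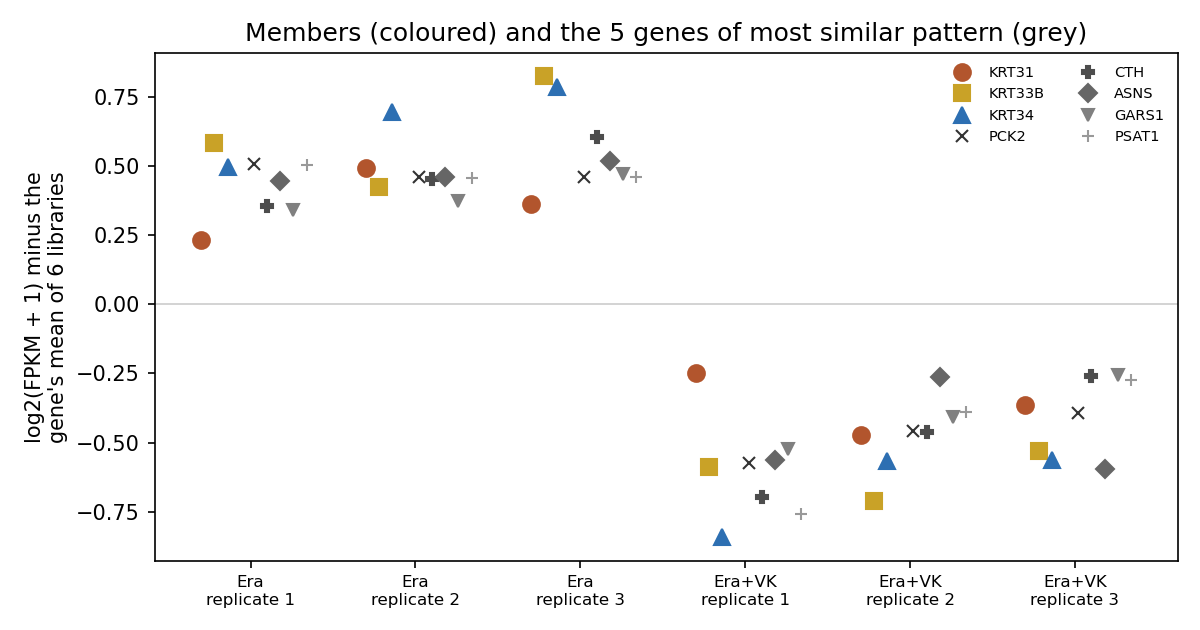
Log2(FPKM + 1) minus the gene's own mean of 6 libraries (y axis) in each library (x axis), for KRT31, KRT33B and KRT34 (coloured) and PCK2, CTH, ASNS, GARS1 and PSAT1 (grey). All 8 genes are above 0 in the 3 Era libraries and below 0 in the 3 Era+VK libraries, and KRT34 is the lowest of the 8 in Era+VK replicate 1.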

How the data were processed

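Total RNA of 6 ARPE-19 libraries was sequenced as 2 × 150 bp pairs. The authors deposited FPKM values with 2 decimals per gene and library. The submitters' processing notes name cutadapt, HISAT2 and StringTie 2.1.6, and list mm10, a mouse build, although the rows carry human Ensembl identifiers; which genome was aligned to could not be settled here. The notes for these values do not state strand. FPKM carry no counts, so depth, counting error and detection limits are unknown and no count model was fitted.

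Era+VK was compared with Era, 3 libraries each, for the 11981 genes whose mean over the 6 libraries reached 1 FPKM, using limma 3.58.1 (R 4.3.3, with its mean-variance trend) on log2(FPKM + 1). Adjusted p-values followed Benjamini and Hochberg, and 0.05 was the threshold. The scale understates the change of low genes. The legend of the figure that holds the RNA-seq panels speaks of 3 independent experiments, without saying to which panels this applies, and the labels do not say whether replicates were separate cultures; if they were not, the p-values measure technical spread. They also number the cell line upwards between libraries, while titles name ARPE-19.

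The members and lists were chosen with earlier results of these data known. Named genes were the members, list genes and neighbours with a mean of at least 1 FPKM or an adjusted p under 0.05, those standing out by level, and the 5 of most similar pattern. Others named were chosen after their values were seen. Identities were computed with Biopython 1.88 from GENCODE 29 transcripts, and promoters are from RefSeq (GRCh38.p14). Protein sequences were not used here. Alternatives were a pseudocount of 0.1 FPKM, other filters, quantile normalization, a replicate block, leaving out each library and adding members together.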

Additional observations from a re-analysis of the deposited data

How the results depend on the processing

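The direction of KRT31, KRT33B and KRT34 was the same under every alternative run. They were picked for this direction and their groups did not overlap, so leaving out a library could not reverse it. Nothing is read from the stable direction. Leaving out each library gave log2 fold changes of -0.79 to -0.66 for KRT31, -1.31 to -1.11 for KRT33B and -1.39 to -1.22 for KRT34. KRT31 moved to -1.01 with a pseudocount of 0.1 FPKM, and KRT34 to -1.499 in Era+VK replicate 1 alone. Adding all 4 members before the log gave -1.29, a value set by KRT33B and KRT34 and far from that of KRT31 alone.

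The calls over all genes depended on the processing. From 74 genes, the count became 1 with no filter on low genes, 122 with at least 1 FPKM in every library and 112 with quantile normalization. It ranged from 2 to 70 without 1 library, with 2, 2 and 5 without Era replicates 1, 2 and 3 and 42 without Era+VK replicate 3. The count of other keratin and keratin-associated genes called, 1, became 0 with no filter and 2 with either of the other settings, and ranged from 0 to 2 without 1 library. The count of neighbouring genes called, also 1, became 0 with no filter and ranged from 0 to 1 without 1 library. The regulator, structural and linker lists had 0 calls under every alternative run.

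The replicate numbers are shared between the groups, but nothing in the labels ties them, and the deviations of same-numbered libraries correlated at 0.071, 0.103 and 0.021. With the number as a replicate block, 42 genes were called, 0 other keratin and keratin-associated genes and 0 neighbours. Era replicate 3 correlated better with Era+VK replicate 1 (0.04) than with its own number.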
